A study of Homo sapiens with 4 samples.

Results

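The primed state marker genes ZIC2, ZIC5, OTX2, DUSP6, THY1, SALL2, CD24 and CYTL1 were followed in a naïve human ESC line moved from 2-D into 3-D culture. The genes were taken by name from a list of 8, and all 8 were found among the 60564 gene identifiers of the count files and all 8 passed edgeR's filter on low counts, which kept 22555 genes. The cells were Elf1, an established ESC line derived from a cleavage-stage embryo, so every value comes from 1 line. In both conditions they received the same medium, with FGF2, LIF, the GSK3 inhibitor CHIR99021 and an inhibitor of the ERK kinase MEK. The line was maintained on mouse feeder cells, and before encapsulation the cells were moved to plates coated with Matrigel without feeders. The labels describe the 2-D grown cells as adherent on plastic coated with Matrigel. The 3-D grown cells had been dissociated, encapsulated in scaffolds of PEG-8-SH and PEG-8-Acr and kept there for 21 days. Each condition had 2 libraries, described in the methods of the study as independent biological replicates, and the time that the 2-D cells spent in culture before harvest is not given in the sources used here. RNA was depleted of ribosomal RNA and sequenced, and the counts summed to between 30114220 and 33833778 in the 2-D and between 18276147 and 21154409 in the 3-D libraries, so the 2-D values rest on more reads.

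Human ESCs can be held in a naïve state that resembles the epiblast before implantation or in a primed state that resembles it after implantation. Naïve culture relies on LIF and on inhibition of ERK signaling, whereas primed cells depend on FGF and ERK signaling and start to transcribe genes of the later epiblast and early neural plate. Among these are the transcription factors ZIC2, ZIC5, OTX2 and SALL2. The surface glycoproteins THY1 and CD24 are used to sort primed from naïve cells, DUSP6 is the phosphatase that ERK induces to inactivate ERK itself, and CYTL1 encodes a small secreted protein.

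All 8 primed markers had reads in all 4 libraries. Levels between genes were compared as TPM, a transcript abundance that divides counts by the length of the exons and scales each library to the same total. In 2-D grown cells CD24 was the most abundant, with 889 ± 29.5 TPM (SD, n = 2, as for all values that follow). SALL2 followed with 79.1 ± 1.48, THY1 with 33.6 ± 0.430, ZIC2 with 23.1 ± 0.442, OTX2 with 20.5 ± 1.36 and ZIC5 with 5.12 ± 0.00627 TPM. CYTL1 and DUSP6 were the lowest, at 1.65 ± 0.176 and 1.64 ± 0.263 TPM, and their libraries overlapped. In 3-D grown cells the order was the same down to ZIC5, and DUSP6 and CYTL1 overlapped again, at 2.19 ± 0.490 and 2.113 ± 1.04 TPM. In each condition no other neighbours in the order had overlapping libraries. An SD of 2 libraries measures the spread only roughly.

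The label of the cells was checked against markers of human ESCs and of the naïve state. The 10 core pluripotency genes were all tested, and POU5F1, which encodes OCT4, had 124 ± 3.30 TPM in 2-D and 121 ± 21.3 TPM in 3-D grown cells (copies of POU5F1 on alternate contigs make its counts uncertain). Of 24 naïve state markers, 20 were tested. ZFP42, PRDM14 and GDF3 led them with 188 ± 2.56, 152 ± 0.683 and 100 ± 2.31 TPM in 2-D grown cells. KLF17, a defining factor of the human naïve state, had between 16 and 29 counts per library, which was 0.686 ± 0.340 TPM in 2-D and 0.894 ± 0.0790 TPM in 3-D grown cells. DPPA5 had 4, 4, 2 and 0 counts in 2-D replicates 1 and 2 and 3-D replicates 1 and 2, and ESRRB had 6, 2, 0 and 0. NLRP7 had 1 count in 2-D replicate 1 and none elsewhere, but copies on alternate contigs make its counts uncertain. Other naïve markers lay between these, with TFAP2C at 95.7 ± 3.14, DNMT3L at 28.1 ± 1.65 and KLF4 at 7.81 ± 0.213 TPM in 2-D grown cells. TFCP2L1 had 7.54 ± 0.241 and SUSD2 4.11 ± 0.411 TPM there. DPPA3 had 18.8 ± 3.15 TPM, but a copy on chromosome 14 makes its counts uncertain. Each primed marker stood above KLF17 on the TPM scale in all 4 libraries, while ZFP42 stood above each primed marker except CD24.

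**Figure D1:**
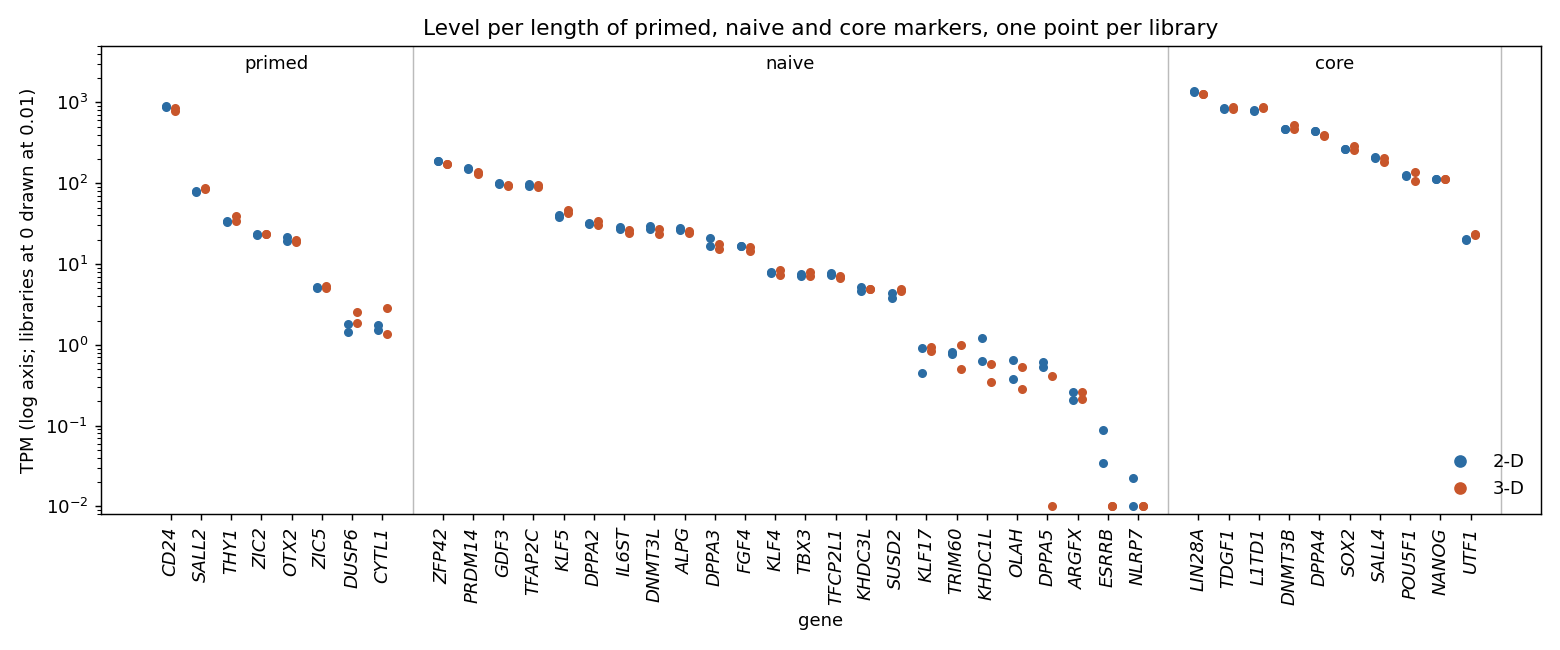
TPM of the 8 primed markers, 24 naïve state markers and 10 core pluripotency genes (log axis, ordered by level within each list), with 1 point per library, 2-D in blue and 3-D in orange; a library at 0 is drawn at 0.01. The points of both conditions lie close together for most genes, and the naïve markers reach from 188 TPM for ZFP42 in 2-D grown cells down to genes at or near 0.

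To ask whether 3-D culture moved the primed markers, counts were scaled with edgeR's TMM factors and tested for a difference between conditions by edgeR's quasi-likelihood method, and a gene was called at a p below 0.05 after Benjamini-Hochberg correction over the 22555 genes. Levels per library are given below as TMM-normalized CPM, counts scaled to a common library size, and a positive log2 fold change means a higher level in 3-D. SE is its standard error. SALL2 and THY1 rose in 3-D grown cells, by 15.7% and 16.3%. Of the 8 markers, 2 were thus called higher, 0 lower, and 6 did not pass, where 7.90% of all tested genes were called, 4.54% higher and 3.36% lower. At an unadjusted p below 0.05 there were 3 higher (SALL2, THY1 and DUSP6) and 0 lower, beside 11.1% of all tested genes higher and 21.3% in either direction, and DESeq2 also called SALL2 and THY1 higher and 0 lower. In 5 markers both 3-D libraries lay above both 2-D libraries in TMM-normalized CPM, against 25.5% of all tested genes. In 0 they lay below, against 25.0%. As TPM, ZIC2 overlapped, at 22.80 and 23.43 in 2-D and 23.81 and 23.35 in 3-D replicates 1 and 2. ZIC5 overlapped too, at 5.124 and 5.115 and at 5.311 and 5.044 TPM. On that scale the means of SALL2 were 79.1 in 2-D and 86.0 in 3-D, and those of THY1 were 33.6 and 36.8. The log2 fold change was above 0 in 6 of the 8 markers, and in 11272 of the 22555 tested genes. Its median over the 8 markers was 0.17, and over all tested genes −0.00014.

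**Figure D2:**
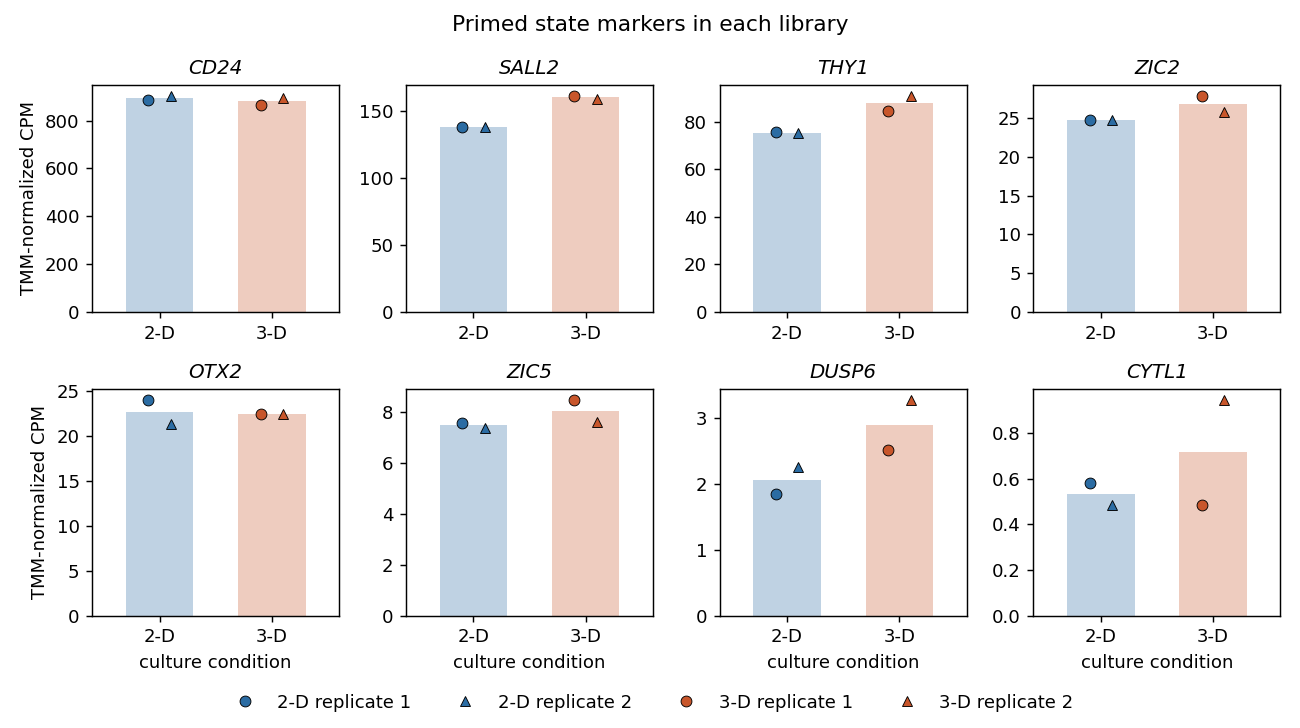
TMM-normalized CPM of each primed marker (linear axes from 0, a separate scale per gene) in each condition; points are libraries, circles replicate 1 and triangles replicate 2, and bars are means of 2. Both 3-D points lie above both 2-D points for SALL2, THY1, ZIC2, ZIC5 and DUSP6, and the points of the conditions overlap for CD24, OTX2 and CYTL1.

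SALL2, a zinc finger transcription factor of the spalt family, lies on the minus strand of chromosome 14 from 21521080 to 21537216 (hg38, GENCODE release 44). It had 138 CPM in both 2-D libraries and 161 and 159 CPM in 3-D replicates 1 and 2, from between 2854 and 4776 counts per library. The conditions did not overlap, and the gap between them was wider than the spread within either, with means of 138 ± 0.0361 and 160 ± 1.81 CPM. With 2 libraries per condition, that spread is only roughly known. The log2 fold change was 0.21 (SE 0.03, 95% interval 0.15 to 0.27, edgeR adjusted p = 9.45e-04).

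The 250 bases before the RefSeq start of SALL2 (GRCh38.p14) were read because it is the called marker with an entry in the promoter table used here, and the 155 of them that lie outside GENCODE exons of that strand are shown, at chr14:21537217-21537371, 5′ to 3′ along the minus strand. Capitals in this and the following sequences mark the TATA box (TATAAA), the CCAAT box and the GC box (GGGCGG) on either strand, 3 short motifs common near start sites, and this stretch holds none.

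SALL2: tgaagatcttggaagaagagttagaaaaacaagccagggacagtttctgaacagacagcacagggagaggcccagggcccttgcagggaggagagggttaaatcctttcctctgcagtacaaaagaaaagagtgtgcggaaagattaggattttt

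Its GC content was 46.5%, with 1 CpG. Over the 250 bases before 27305 RefSeq starts, 11.1% held TATAAA, 33.0% held CCAAT and 42.3% held GGGCGG, and the median was 58.0% GC with 11 CpG. The SALL2 stretch is shorter and leaves out the bases nearest its start, so it is not directly comparable with these shares and medians.

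Of the other spalt genes, SALL1 also rose, from 83.8 and 84.3 CPM in 2-D to 94.5 and 90.7 CPM in 3-D replicates 1 and 2, a log2 fold change of 0.14 (SE 0.03, edgeR, adjusted p = 0.0263). SALL4, a core pluripotency factor, had a log2 fold change of −0.03 (SE 0.03, edgeR, adjusted p = 0.628), with overlapping libraries. SALL3 had at most 3 counts in a library, but copies on alternate contigs make its counts uncertain. Per length, SALL2 stood at 0.378 to 0.467 times the level of SALL4 and at 1.92 to 2.05 times that of SALL1 over the 4 libraries. An antisense transcript without a symbol, ENSG00000257096, overlaps 472 exonic bases of SALL2, which is 8.77% of them. Its log2 fold change was −0.14 (SE 0.09, edgeR, adjusted p = 0.398). Whether reads were counted by strand is not given in the sources used here, so reads of this stretch cannot be assigned with certainty.

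ZIC2 and ZIC5 are zinc finger factors of the later epiblast and neural plate that lie head to head on chromosome 13, ZIC5 on the minus strand from 99962964 to 99971767 and ZIC2 on the plus strand from 99981784 to 99986765, with 10017 bases between them. ZIC2 had 24.7 CPM in each 2-D library and 27.9 and 25.8 CPM in 3-D replicates 1 and 2. Both 3-D libraries were higher, but replicate 2 only slightly, and the log2 fold change of 0.12 (SE 0.07, 95% interval −0.03 to 0.27) did not pass (edgeR, adjusted p = 0.3495). ZIC5 had 7.59 and 7.38 CPM in 2-D and 8.50 and 7.63 CPM in 3-D replicates 1 and 2. The conditions did not overlap, but 3-D replicate 2 was close to 2-D replicate 1, and the log2 fold change of 0.11 (SE 0.11, 95% interval −0.13 to 0.35) did not pass either (edgeR, adjusted p = 0.648). Both genes were highest in 3-D replicate 1, and without that library their log2 fold changes were 0.06 and 0.03. Per length, ZIC2 was 4.45 to 4.63 times as abundant as ZIC5 in every library.

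The 250 bases before each start are shown for this pair because the genes face each other and kept that ratio in all 4 libraries. ZIC2 covers chr13:99981534-99981783 on the plus strand and ZIC5 covers chr13:99971768-99972017 on the minus strand (RefSeq, GRCh38.p14).

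ZIC2: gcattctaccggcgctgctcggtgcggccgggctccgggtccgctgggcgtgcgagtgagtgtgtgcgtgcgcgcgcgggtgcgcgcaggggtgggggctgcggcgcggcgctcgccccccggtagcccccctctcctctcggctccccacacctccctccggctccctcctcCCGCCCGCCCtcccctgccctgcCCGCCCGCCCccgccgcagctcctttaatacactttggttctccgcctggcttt

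ZIC5: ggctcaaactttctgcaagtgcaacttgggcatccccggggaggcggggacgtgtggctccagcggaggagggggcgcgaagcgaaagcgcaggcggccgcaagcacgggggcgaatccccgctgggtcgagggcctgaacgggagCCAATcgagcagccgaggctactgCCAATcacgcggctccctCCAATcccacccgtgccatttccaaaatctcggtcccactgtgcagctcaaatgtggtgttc

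The ZIC2 stretch has 75.6% GC with 31 CpG and 4 copies of GGGCGG on the other strand, which overlap in pairs, and the ZIC5 stretch has 64.8% GC with 21 CpG and 3 copies of CCAAT. Neither holds TATAAA. A match of letters does not show that a factor binds there.

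The paralogs ZIC1 and ZIC4, which act later in neural tissue, had at most 5 and 4 counts in a library and were not tested. Between ZIC5 and ZIC2 lies a noncoding gene, ENSG00000288060, with at most 4 counts in a library.

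OTX2, a homeobox factor of the post-implantation epiblast and forebrain, lies on the minus strand of chromosome 14 from 56799905 to 56816693. Its levels were 24.0 and 21.3 CPM in 2-D replicates 1 and 2 and 22.4 CPM in both 3-D libraries. Both 3-D values fell between the 2-D values. The log2 fold change was −0.02 (SE 0.08, 95% interval −0.18 to 0.15, edgeR adjusted p = 0.938), and it was 0.07 without 2-D replicate 1. Its paralogs OTX1 and CRX had at most 7 and 3 counts in a library. The antisense gene OTX2-AS1 had 1 count in all 4 libraries together.

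THY1, the glycoprotein CD90, is anchored in the membrane of primed ESCs and also of fibroblasts and neurons, and lies on the minus strand of chromosome 11 from 119415476 to 119424985. It had 75.6 and 75.0 CPM in 2-D replicates 1 and 2, and 84.6 and 90.8 CPM in 3-D replicates 1 and 2. Both 3-D libraries were above both 2-D libraries, and they differed more from each other than the 2-D libraries did (75.3 ± 0.423 against 87.7 ± 4.40 CPM). The log2 fold change was 0.22 (SE 0.04, 95% interval 0.13 to 0.30, edgeR adjusted p = 0.00453), and it was 0.17 when 3-D replicate 2 was left out. On the other strand, THY1-AS1 shares 632 exonic bases with THY1 and USP2-AS1 shares 232, or 9.16% and 3.36% of its exons. Their log2 fold changes were 0.11 and 0.03 (SE 0.07 and 0.17, edgeR, adjusted p = 0.367 and 0.955). THY1 has no entry in the promoter table.

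Since THY1 also marks fibroblasts, 9 fibroblast and mesenchyme markers were set beside it. Of the 7 tested, 3 were called higher and 0 lower, where 4.54% of all tested genes were called higher and 3.36% lower. The collagen genes COL1A1 and COL3A1 had log2 fold changes of 0.29 and 0.73 (SE 0.04 and 0.10, edgeR, adjusted p = 7.79e-04 and 7.04e-04), and the matrix gene POSTN had 0.65 (SE 0.15, edgeR, adjusted p = 0.0181). COL3A1 was at 9.91 and 10.01 CPM in 2-D and 15.2 and 17.8 CPM in 3-D replicates 1 and 2, and POSTN was at 4.09 and 4.08 and at 5.63 and 7.24 CPM. All 3 were highest in 3-D replicate 2, as was THY1. COL1A2, TWIST1, PDGFRA and PDGFRB did not pass, and DCN and LUM, markers of mature fibroblasts, had 2 to 6 and 3 to 17 counts per library. The summed level of the 9 markers was 463 to 470 CPM in 2-D and 474 to 518 CPM in 3-D libraries. In RNA of whole cultures, more cells of a type and more RNA per cell cannot be told apart, and the part of these genes in the rise of THY1 was not tested.

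CD24, a small mucin-like surface glycoprotein, lies on the minus strand of chromosome 6 from 106969831 to 106975627. It had 885 and 904 CPM in 2-D replicates 1 and 2, and 866 and 893 CPM in 3-D replicates 1 and 2, from 16045 to 30544 counts. The conditions overlapped, and the log2 fold change was −0.02 (SE 0.03, 95% interval −0.09 to 0.04, edgeR adjusted p = 0.735). Reads of CD24 can also map to a copy elsewhere in hg38, which covers 99.8% of its longest transcript at 98.2% identity, so its counts are uncertain. Of the other markers, 0 had such a copy. The surface markers thus gave different values, since CD24 was 26.1 and 26.9 times as abundant per length as THY1 in 2-D replicates 1 and 2 and 22.8 and 21.9 times in 3-D replicates 1 and 2. That difference between them was not tested.

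**Figure D3:**
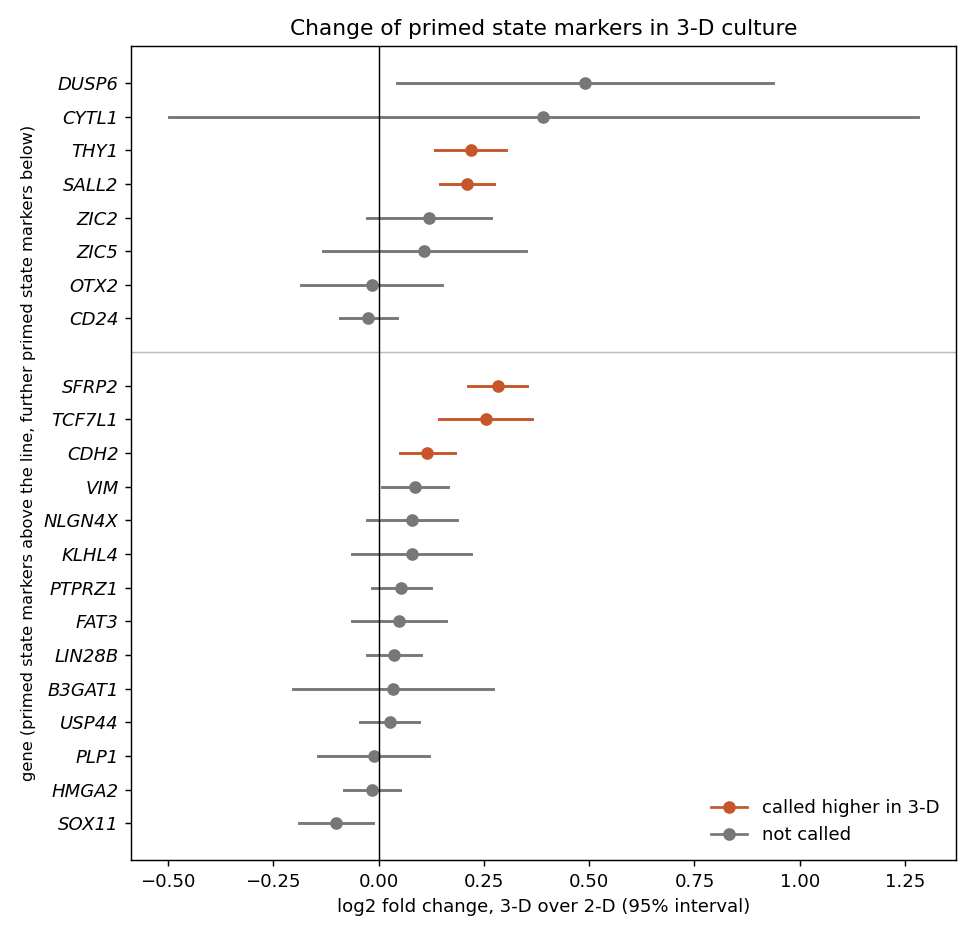
Log2 fold change (3-D relative to 2-D) with its 95% interval from edgeR's fit, for the 8 primed markers (above the line) and 14 further primed state markers (below), orange where called higher and grey where not called. Of the primed markers the intervals of SALL2, THY1 and DUSP6 lie above 0 and CYTL1 has the widest interval, and below the line SFRP2, TCF7L1 and CDH2 are called.

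DUSP6 lies on the minus strand of chromosome 12 from 89347235 to 89352501. Its levels were 1.85 and 2.27 CPM in 2-D replicates 1 and 2 and 2.53 and 3.29 CPM in 3-D replicates 1 and 2, from 52 to 70 counts per library. Both 3-D libraries were above both 2-D libraries, but each condition spread widely, with 2.06 ± 0.292 and 2.91 ± 0.537 CPM. At 0.49 its log2 fold change was the highest of the 8, and it did not pass (SE 0.21, 95% interval 0.04 to 0.94, edgeR unadjusted p = 0.0340, adjusted p = 0.187). Leaving out 3-D replicate 2 gave 0.30 and leaving out 3-D replicate 1 gave 0.68. An antisense transcript, ENSG00000274021, overlaps 28.6% of the exonic bases of DUSP6, and its own log2 fold change was 0.44 (SE 0.38, edgeR, adjusted p = 0.577).

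The 250 bases before its start, chr12:89352502-89352751 on the minus strand (RefSeq, GRCh38.p14), are shown because this is the marker that reads out ERK signaling and the one with the highest log2 fold change. They have 57.2% GC with 16 CpG and 1 CCAAT, read here on the other strand as ATTGG.

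DUSP6: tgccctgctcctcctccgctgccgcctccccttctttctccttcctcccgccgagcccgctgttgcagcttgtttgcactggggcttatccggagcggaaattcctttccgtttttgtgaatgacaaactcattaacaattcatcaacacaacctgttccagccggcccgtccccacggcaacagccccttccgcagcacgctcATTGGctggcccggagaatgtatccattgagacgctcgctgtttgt

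Other genes that ERK induces were measured beside DUSP6. Of the 17 others on the list, 16 were tested, 1 was called higher and 1 lower, and their median log2 fold change was 0.07. Among all tested genes, 4.54% were called higher and 3.36% lower. FOSL1, an AP-1 subunit, rose from 13.7 and 15.0 CPM in 2-D to 20.7 and 19.8 CPM in 3-D replicates 1 and 2, a log2 fold change of 0.50 (SE 0.08, edgeR, adjusted p = 0.00250). PHLDA1, induced by growth factors, fell by 0.18 on the log2 scale (SE 0.03, edgeR, adjusted p = 0.00529). The ERK feedback inhibitors SPRY1, SPRY2 and SPRY4 had log2 fold changes of 0.11, −0.03 and 0.10 (edgeR, adjusted p = 0.462, 0.726 and 0.0620). Per length, SPRY4 was 34.5 to 57.5 times and the ERK target ETV4 47.1 to 75.5 times as abundant as DUSP6. SPRED3, a further feedback inhibitor, was at the level of DUSP6, with 1.98 ± 0.194 TPM in 2-D and 1.86 ± 0.0716 TPM in 3-D grown cells, and IER3, uncertain because of copies on alternate contigs, was below it, with 0.387 ± 0.0867 and 0.549 ± 0.0820 TPM. The nuclear phosphatases DUSP4 and DUSP5 were 2.32 to 3.84 and 17.6 to 27.0 times as abundant as DUSP6.

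DUSP7 and DUSP9, cytoplasmic phosphatases of ERK related to DUSP6, had log2 fold changes of 0.20 and 0.08 (SE 0.07 and 0.33, edgeR, adjusted p = 0.106 and 0.929). Upstream of ERK, 16 genes of receptors, ligands and the cascade were tested, and their log2 fold changes had a median of 0.0048. Among them 1 was called higher and 1 lower, against 4.54% and 3.36% of all tested genes. MAP2K1, which encodes the kinase MEK1, fell by 0.15 on the log2 scale (SE 0.04, edgeR, adjusted p = 0.0432). HRAS was the gene called higher, with a log2 fold change of 2.12 (SE 0.26, edgeR, adjusted p = 3.71e-04), from 36 to 148 counts per library, and an identical copy on an alternate contig makes its counts uncertain.

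CYTL1 lies on the minus strand of chromosome 4 from 5014586 to 5019458 and was at the edge of detection, with 20 and 15 counts in 2-D replicates 1 and 2 and 10 and 17 counts in 3-D replicates 1 and 2. These were 0.580, 0.486, 0.486 and 0.947 CPM, so 3-D replicate 1 matched 2-D replicate 2 and 3-D replicate 2 alone was high. The log2 fold change of 0.39 (SE 0.41, 95% interval −0.50 to 1.28, edgeR adjusted p = 0.661) was −0.14 without 3-D replicate 2.

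Further genes of the primed state were taken from a list of 14, all of which were tested. Of these, 3 were called higher, 0 lower and 11 did not pass, with a median log2 fold change of 0.05. Of all tested genes, 4.54% were called higher and 3.36% lower. SFRP2, a secreted Wnt antagonist, rose from 95.2 and 95.9 CPM in 2-D to 114 and 118 CPM in 3-D replicates 1 and 2, a log2 fold change of 0.28 (SE 0.03, edgeR, adjusted p = 2.22e-04). TCF7L1, a repressor of Wnt target genes, rose by 0.25 and CDH2, the N-cadherin gene, by 0.12 on the log2 scale (SE 0.05 and 0.03, edgeR, adjusted p = 0.00879 and 0.0340). SOX11, a neural SRY-box factor, was the gene with the most negative log2 fold change, −0.10 (SE 0.04, edgeR, adjusted p = 0.162), and both of its 3-D libraries lay below both 2-D libraries. PTPRZ1, USP44, HMGA2 and LIN28B had log2 fold changes between −0.02 and 0.05, and none passed.

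Of the formative and early post-implantation genes that are not among the 8 markers, 6 of 7 were tested and 4 had a log2 fold change above 0. By edgeR 0 were called, against 7.90% of all tested genes. LEF1, a Wnt effector, came nearest with 0.23 (SE 0.07, edgeR, adjusted p = 0.0702). POU3F1 had 0.19 and SOX3 −0.24 (SE 0.10 and 0.13, edgeR, adjusted p = 0.316 and 0.329). FGF5, the classical marker of the post-implantation epiblast, had 2 counts in 2-D replicate 1 and none in the other libraries.

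The naïve state markers had a median log2 fold change of −0.02. Of the 20 tested, 1 gene was called higher and 0 lower, against 4.54% and 3.36% of all tested genes. That gene was KLF5, a Krüppel-like factor, with 46.8 and 47.9 CPM in 2-D and 56.1 and 57.1 CPM in 3-D replicates 1 and 2, a log2 fold change of 0.26 (SE 0.04, edgeR, adjusted p = 0.00336). The core pluripotency genes gave 2 higher and 0 lower of 10, against the same shares, with a median of 0.09. DNMT3B, a DNA methyltransferase, had a log2 fold change of 0.17 and L1TD1, an RNA-binding protein, of 0.21 (SE 0.03 and 0.03, edgeR, adjusted p = 0.00429 and 0.00111). No difference between the primed, naïve and core lists was tested.

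Markers of further lineages were examined in the same way, where 7.90% of all tested genes were called. Of 12 neural ectoderm markers 6 were tested and 0 called, and NES, the intermediate filament gene nestin, held most of their summed 591 to 617 CPM. PAX6 had 10 to 21 counts per library, SOX1 at most 3, and HES5 was listed at 0 throughout, although a copy on an alternate contig makes HES5 uncertain. Of 8 neural crest markers 5 were tested and 0 called, with ETS1 the most abundant and a summed level of 78.2 to 81.3 CPM in 2-D and 74.1 to 79.4 CPM in 3-D libraries. The 10 mesoderm and endoderm markers had 7 tested and 0 called, MIXL1 being the most abundant, and summed to 74.0 to 74.2 CPM in 2-D and 79.3 to 80.5 CPM in 3-D libraries. The 11 trophoblast and amnion markers had 6 tested and 0 called, KRT7 being the most abundant, and summed to 5.42 to 6.35 CPM in 2-D and 6.74 to 6.80 CPM in 3-D libraries.

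For the called markers, the protein-coding genes with the most similar pattern over the 4 libraries were sought, by the Euclidean distance of log2 CPM centred on each gene's mean. Nearest to SALL2 were ELOF1 and RERE, at distances of 0.0055 and 0.0090, with log2 fold changes of 0.21 each. Nearest to THY1 were BAG3 and SH2B1, both at a distance of 0.018, with log2 fold changes of 0.22 and 0.20. Such closeness is common with 4 libraries, as 972 of 14304 genes lay within a distance of 0.1 of SALL2 and 716 within 0.1 of THY1.

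Leaving out a library or changing the scaling, filter or test did not change which of the 8 markers were called. SALL2 and THY1 were called in all 14 alternatives, with log2 fold changes of 0.15 to 0.22 and 0.15 to 0.27. DUSP6, ZIC2, ZIC5, OTX2, CD24 and CYTL1 were called in none.

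**Figure D4:**
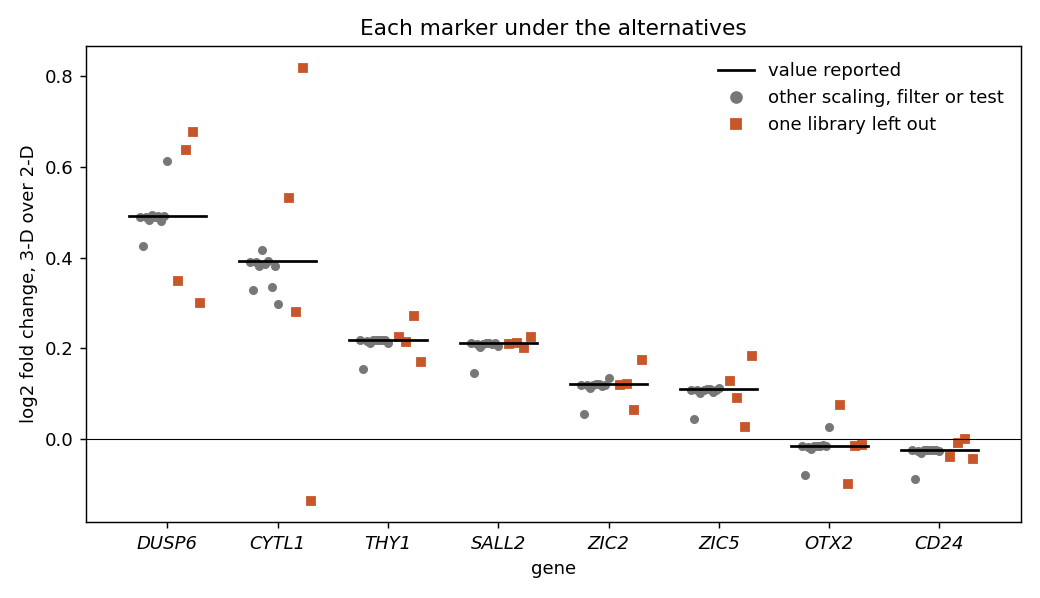
Log2 fold change (3-D relative to 2-D) for each primed marker, as reported (black line), under 10 other choices of scaling, filter, test, block or depth (grey circles) and with each library left out in turn (orange squares). SALL2 and THY1 stay between 0.15 and 0.27, CYTL1 ranges from −0.14 to 0.82, and OTX2 lies on both sides of 0.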

How the data were processed

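RNA was measured in 2 libraries of 2-D and 2 of 3-D grown Elf1 cells. The authors trimmed paired reads with Trim Galore 0.6.3, mapped them to hg38 with HISAT2 2.1.0 and counted them on genes of GENCODE release 30 with featureCounts 1.6.4; the strand and multimapping settings are not given in the sources used here. The deposited gene counts are raw whole numbers, and the deposited normalized signal is these counts divided by 1 DESeq2 size factor per library. Columns of that table holding the authors' own comparison (mean, fold change, error, statistic, p-values) were not used.

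Identifiers were matched to GENCODE release 44 without version numbers, 60295 of 60564, and the 269 others held 0.122% of the counts. Counts were analysed in R 4.3.3 with edgeR 4.0.16 (TMM, filterByExpr, glmQLFit and glmQLFTest in default mode, condition alone, Benjamini-Hochberg adjustment), tested on simulated data first. There edgeR recovered 24% of 1.25-fold and 52% of 1.5-fold changes, set in genes of any level, so a marker that did not pass may still differ. A standard error is the size of the log2 fold change over the square root of F. Replicate libraries differed beyond counting error, since chi-square divided by its degrees of freedom came to 1.91 (2-D) and 2.91 (3-D). TPM used exon lengths of GENCODE release 44. Copies were found with minimap2 2.31-r1302 (at least 80% of the transcript, at least 98% identity). Alternatives, tried on every count and marker, were DESeq2 1.42.0, limma 3.58.1 on log2 of the normalized values plus 1, and others given in the closing section.

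The 8 genes and the lists beside them were chosen from general knowledge and with earlier results of these data known. Some genes of these lists are not reported here and were left out of the counts over the lists. Genes named are the 8 markers, their paralogs, genes within 20 kb of them, the 2 nearest in pattern to each called marker, and every called gene of a list, or its most abundant gene where none was called; other genes were added after their values were seen.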

Additional observations from a re-analysis of the deposited data

How the results depend on the processing

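Of 112 recomputed values of the 8 markers, over 14 alternatives, 109 kept their direction and their side of the threshold. The 3 others changed sign without being called: OTX2 was 0.027 after 2-D counts were thinned to 3-D depth, and over libraries left out in turn OTX2 ranged from −0.10 to 0.074 (0.074 without 2-D replicate 1) and CYTL1 from −0.14 (without 3-D replicate 2) to 0.82, where a lone library is assumed to vary like the other condition; the cause was not tested. The counts of 2 markers called higher and 0 lower held in all 14, and CD24 was lower at an unadjusted p below 0.05 with library size as the only scaling. DESeq2 gave DUSP6, ZIC5 and CYTL1 no adjusted p. Over all tested genes, the 1782 calls became 795 with DESeq2, 1139 with edgeR's likelihood ratio test, and 974 to 2643 with a library left out (974 without 2-D replicate 2, 1186 without 2-D replicate 1). Library size alone split them into 514 higher and 1879 lower, against 1024 and 758, and shifted the median of all genes by −0.06 on the log2 scale. Libraries with the same number did not deviate together (correlation −0.0079), and a replicate block gave 2 markers higher, 0 lower and 2167 genes called. Calls over all genes stayed within 1.5 times of 1782 with DESeq2's size factors in edgeR (1755), no filter on low counts (2486), at least 10 counts in every library (1771), edgeR without its legacy mode (1751), limma (1541) and thinned counts (1445). CYTL1 had 10 to 20 and DUSP6 52 to 70 counts per library, and whether depth or the spread between libraries kept them from a call was not tested.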

Other observations

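Among the lineage markers, 2 regulators that did not pass the threshold had log2 fold changes near 1, and both were picked out after their values were seen. GATA6, a factor of the primitive endoderm, had 0.840 and 1.10 CPM in 2-D and 2.33 and 1.504 CPM in 3-D replicates 1 and 2, with a log2 fold change of 1.001 (SE 0.28, edgeR, adjusted p = 0.0516). HAND1, a factor of trophoblast, amnion and lateral mesoderm, had 0.609 and 0.680 CPM in 2-D and 1.26 and 1.28 CPM in 3-D replicates 1 and 2, with 0.98 on that scale (SE 0.30, edgeR, adjusted p = 0.0695). GATA6 rests on 27 to 48 and HAND1 on 21 to 26 counts per library.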
